A study of Mus musculus with 18 samples.

Results

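The 6 genes of the voltage-gated sodium channel family described here were chosen by name and followed across control, MI and HXP mouse hearts: the beta subunit genes Scn2b, Scn3b and Scn4b and the alpha subunit genes Scn4a, Scn7a and Scn10a. They are 6 of 34150 genes with a deposited value. The 3 groups compared held 6 libraries each, all made from heart tissue RNA depleted of ribosomal RNA. Control and MI hearts carry only those labels, where MI stands for the acute myocardial infarction of the series title, and HXP is labelled a treatment given in that model. No source used here spells out HXP or gives its dose, the times, the age, sex and strain of the mice, or whether every HXP mouse had an infarct. All 6 genes had reads in all 18 libraries, but only Scn4a, Scn4b and Scn7a passed the minimum mean of 0.5 FPKM (reads per kilobase of exon, scaled to the depth of the library) and were among the 13710 genes tested.

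A voltage-gated sodium channel is built from a large alpha subunit, which forms the pore that opens on depolarization, and smaller beta subunits, single-pass membrane proteins of the immunoglobulin fold that alter its gating, its surface level and its contacts with other cells. In the heart the inward sodium current drives the fast upstroke of the action potential in working muscle and in the conduction system. The alpha subunits differ in where they are best known: Scn4a is the skeletal muscle channel, Scn10a the tetrodotoxin-resistant channel of sensory neurons, and Scn7a an atypical channel known in glia as a sensor of sodium outside the cell.

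On GRCm38, 4 of the 6 genes lie on chromosome 9. Scn3b (ENSMUSG00000049281) covers positions 40269217 to 40291618 on the plus strand. Scn2b (ENSMUSG00000070304, 45117782 to 45130070) and Scn4b (ENSMUSG00000046480, 45138395 to 45154152) are neighbours on the plus strand with 8324 bases between them. Scn10a (ENSMUSG00000034533) covers 119608456 to 119719322 on the minus strand. Scn4a (ENSMUSG00000001027) lies on chromosome 11 from 106318592 to 106353288 and Scn7a (ENSMUSG00000034810) on chromosome 2 from 66673425 to 66784914, both on the minus strand. Values are sums over the merged exons of each gene, and no exon of the 6 genes overlaps an exon of another annotated gene.

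The bases upstream of Scn7a and Scn2b are shown because the levels of these 2 genes ran most closely together of the 15 pairs among the 6 genes (given with the values further on). Both are from the RefSeq promoter table for GRCm38.p6, which held 5 of the 6 genes, and stop before the annotated start of the gene. Capitals mark E-boxes (CANNTG) and GATA sites (AGATAA, here on the other strand).
Scn7a, chr2:66784915-66785160, minus strand: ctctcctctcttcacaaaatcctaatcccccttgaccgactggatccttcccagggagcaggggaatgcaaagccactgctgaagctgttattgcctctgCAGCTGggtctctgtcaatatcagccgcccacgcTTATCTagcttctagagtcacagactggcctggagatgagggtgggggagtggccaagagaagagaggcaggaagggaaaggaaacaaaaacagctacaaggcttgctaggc
Scn2b, chr9:45117626-45117781, plus strand: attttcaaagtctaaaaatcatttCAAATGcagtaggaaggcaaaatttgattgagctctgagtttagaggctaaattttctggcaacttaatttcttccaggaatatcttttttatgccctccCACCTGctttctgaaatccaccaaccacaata
The Scn7a stretch of 246 bases was 53.7% G and C, against a median of 52.0% in windows of the same position and length, and held 1 E-box and 1 GATA site. The Scn2b stretch of 156 bases was 35.3% G and C, against a median of 50.6%, and held 2 E-boxes and no GATA site. An E-box was found in 65.8% of all 32851 windows placed like that of Scn7a and in 50.6% of those placed like that of Scn2b. A GATA site was found in 9.87% and 6.81% of them. The letters TATAAA and AGGTGT, searched on both strands like the others, were in neither stretch, and no match overlapped another.

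Each library held 75.8 to 81.1 M recovered reads. The mitochondrial share of reads was 36.4% to 42.6% among controls, lower among MI libraries (20.4% to 33.2%) and widest among HXP libraries (20.5% to 45.5%). By the library numbers of the file headers there were 3 runs, which the labels do not explain: control 2, control 5 and MI 5, then control 1 and HXP 1, 3, 4 and 6, then the remaining 10 libraries. MI 1 and MI 2 were the most alike pair of a group (chi-square of their reads per degree of freedom 24.8, against 54.0 for the next pair and 99.8 for the next MI pair). Both are labelled as separate samples and were counted separately. MI 5 carried lung epithelial markers at a summed 1162 FPKM and MI 4 skeletal muscle markers at 120 FPKM. Cardiomyocyte markers summed to 11528 FPKM or more in every library. The design names 6 mice per group, and the p-values weigh differences against the spread among their libraries, whatever its source. In bulk tissue, fewer cells of a type and less RNA per cell cannot be told apart.

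In control hearts Scn4b was the most abundant of the 6 genes in 5 of 6 libraries, whereas Scn7a was the most abundant in all 6 MI libraries. The mean level per length was 7.54 FPKM for Scn4b, 3.66 for Scn7a and 3.66 for Scn4a in control, and 0.264 for Scn10a, 0.121 for Scn3b and 0.0808 for Scn2b. The control ranges of Scn4b, Scn7a and Scn4a overlapped, as did those of Scn3b and Scn2b, while Scn10a (0.170 to 0.356 FPKM) lay above Scn3b (0.0768 to 0.161 FPKM) in every library. In MI the order was Scn7a (8.59), Scn4a (2.44), Scn4b (2.06), Scn3b (0.435), Scn10a (0.224) and Scn2b (0.202). Here Scn7a lay above Scn4a without overlap, and the 3 lowest genes overlapped one another. In HXP the order was Scn7a (7.87), Scn4b (3.64), Scn4a (2.76), Scn3b (0.301), Scn10a (0.252) and Scn2b (0.180), and the only neighbours without overlap were Scn4a and Scn3b.

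**Figure D1:**
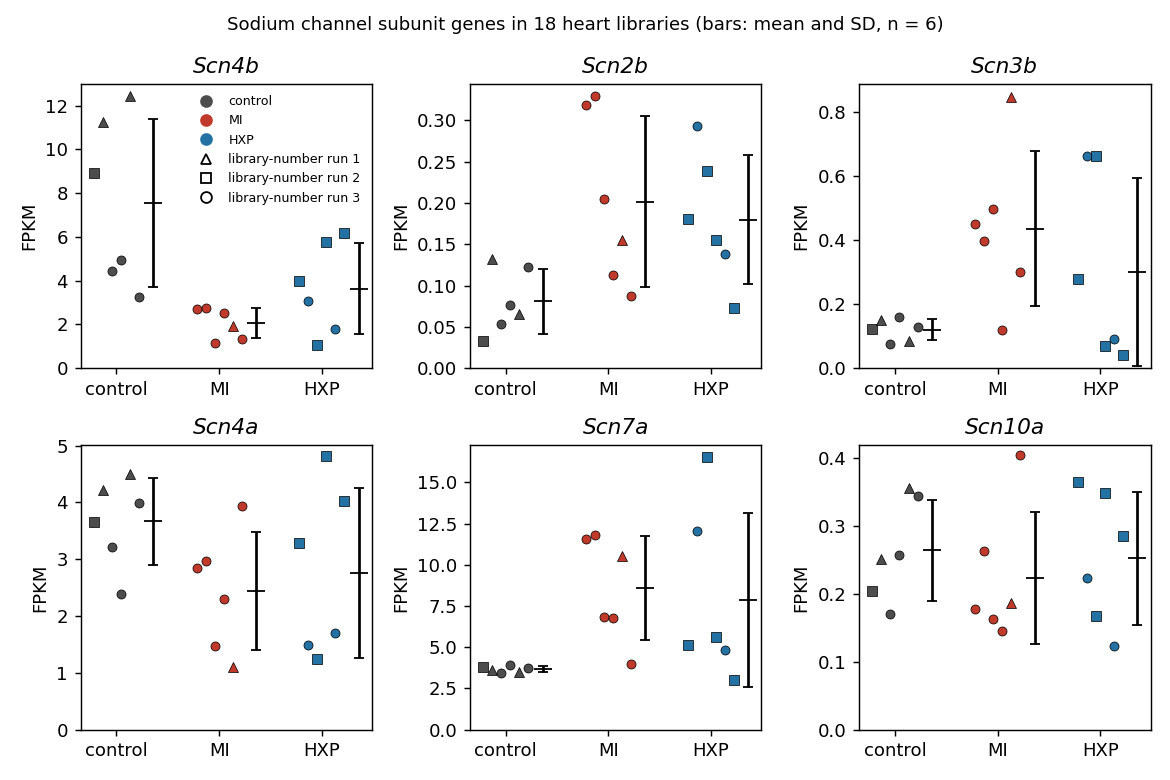
FPKM (linear axes from 0) of each of the 6 sodium channel genes in the 18 libraries, by group, with symbols for the run of library numbers and bars for the mean and SD (n = 6). Scn4b is lower in all 6 MI libraries than in any control and Scn7a higher, while the HXP libraries overlap both other groups.

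The comparison of MI with control asks what differs in the infarcted heart. Of the 3 genes tested, Scn4b fell, Scn7a rose and Scn4a did not pass. This stands against 43.3% of all 13710 genes called, most of them higher (40.1%) and few lower (3.21%). That balance depends on the scaling, with 2395 genes called higher and 2068 lower under median-ratio scaling and 1869 and 2316 under quantile normalization, while Scn4b stayed lower (-1.67 and -1.72) and Scn7a higher (0.65 and 0.62) and both passed. The median log2 fold change of all genes was 0.27.

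Scn4b, whose product is a beta subunit that is linked to the alpha subunit by a disulfide bond, was 8.91, 11.2, 4.46, 4.94, 12.4 and 3.27 FPKM in control 1 to 6. In MI 1 to 6 it was 2.69, 2.73, 1.17, 2.51, 1.93 and 1.32 FPKM. Every MI library lay below every control, which was so in that direction for 1.39% of all genes tested. The mean was 7.54 ± 3.85 FPKM in control and 2.06 ± 0.692 in MI (SD, n = 6 each), a ratio of 0.273. On the log2(FPKM + 1) scale it fell by 1.38 (SE 0.33, 95% interval -2.07 to -0.70, limma adjusted p = 0.0142). The 12 cardiomyocyte markers summed to 15751 to 17357 FPKM in the controls and 12623 to 17119 in the MI libraries. Of these markers 3 fell (Pln, Tnni3 and Atp2a2) and 0 rose, beside 3.21% and 40.1% of all genes. Their part in the level of Scn4b was not tested.

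The control level of Scn4b differed between the runs of library numbers. Control 2 and 5 of the first run were at 11.2 and 12.4 FPKM and control 1 of the next at 8.91, whereas control 3, 4 and 6 of the last were at 3.27 to 4.94. Within that last run, 3 controls had a mean of 4.22 ± 0.860 FPKM (SD, n = 3) and 5 MI libraries of 2.08 ± 0.771 (SD, n = 5), still without overlap. The log2 fold change there was -0.79 and did not pass (limma adjusted p = 0.0688), with 79 genes called in all, and with the run as a covariate it was -1.17 (limma adjusted p = 0.0309). The other runs hold no pair of groups large enough for their own value.

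Scn7a was almost the same in all controls, at 3.78, 3.62, 3.41, 3.91, 3.51 and 3.74 FPKM, a coefficient of variation of 5.05%. In MI 1 to 6 it was 11.6, 11.8, 6.85, 6.75, 10.5 and 4.01 FPKM. All MI libraries lay above all controls, as for 27.9% of all genes tested, and the lowest, MI 6, only just. This separation is of the values as deposited. It does not hold after division by the median-ratio factors, which were 1.01 for MI 6 and 0.829 for control 1. The mean rose from 3.66 ± 0.185 to 8.59 ± 3.18 FPKM (SD, n = 6 each), 2.34 times the control, or 0.97 on the log2(FPKM + 1) scale (SE 0.30, 95% interval 0.33 to 1.60, limma adjusted p = 0.0219). Without MI 5 the log2 fold change was 0.90 and did not pass (limma adjusted p = 0.0542), and within the run of 10 libraries it was 0.89 (limma adjusted p = 0.105). On recovered reads it was 1.13 (limma-voom adjusted p = 0.0268), and the call was lost without control 2, MI 1, MI 2 or MI 5 (1.02 to 1.13, limma-voom adjusted p = 0.0525 to 0.0617).

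Some markers of other cell types also rose in MI, where 40.1% of all genes tested rose. The 10 fibroblast markers summed to 419 to 546 FPKM in control and to 721 to 2428 in MI, and 9 of the 10 rose. MI 6, the lowest MI library for Scn7a, was also the lowest for these markers. It was likewise the lowest MI library for the Schwann cell, neuron and macrophage sums given next, so this match is not particular to fibroblasts. The Schwann cell markers, 5 of 10 of them tested, summed to 3.07 to 6.60 FPKM in control and 4.23 to 7.68 in MI, with 2 rising. The neuron markers summed to 1.70 to 2.75 and 2.63 to 9.73 FPKM, with 2 of 3 tested rising. Tubb3 went from a mean of 0.425 FPKM in control to 3.46 in MI and Stmn2 from 0.801 to 1.19, whereas Dbh stayed at 0.640 and 0.631. Th, Phox2a, Snap25 and Elavl4 had means under 0.1 FPKM over all 18 libraries. All 8 macrophage markers rose, from sums of 79.2 to 112 FPKM to 126 to 386 FPKM. The part of these cell types in the level of Scn7a was not tested.

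Scn4a was 3.66, 4.22, 3.22, 2.38, 4.51 and 3.997 FPKM in control 1 to 6 and 2.85, 2.96, 1.48, 2.29, 1.105 and 3.93 FPKM in MI 1 to 6. MI 3, 4 and 5 lay below all controls and the other MI libraries among them. The log2 fold change was -0.48 (SE 0.25, 95% interval -0.997 to 0.035) and did not pass (limma adjusted p = 0.112). It passed in 1 of 35 settings, with control and MI fitted alone (-0.48, limma adjusted p = 0.0476). The 12 skeletal muscle markers summed to 3.76 to 6.45 FPKM in control and 5.27 to 120 in MI. MI 4, which held the 120 FPKM and the highest Myod1 (0.622 FPKM, 0 to 0.0830 in the other libraries), was at 2.29 FPKM of Scn4a, within the range of the other MI libraries.

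The 3 low genes were read from counts of reads. Scn2b, whose product is also a disulfide-linked beta subunit, had 12, 47, 20, 28, 24 and 44 reads in control 1 to 6 (0.0336 to 0.133 FPKM) and 113, 118, 74, 40, 56 and 32 reads in MI 1 to 6 (0.0878 to 0.330 FPKM). MI 1, 2, 3 and 5 lay above all controls, and MI 4 and MI 6 within the control range. The mean was 0.0808 ± 0.0393 FPKM in control and 0.202 ± 0.103 in MI (SD, n = 6 each). Counting error alone gives a coefficient of variation of 20.6% among the controls, against 48.6% observed. With limma-voom on the recovered reads, fitted to 18633 genes with a mean of at least 10 reads, its log2 fold change was 1.29 (SE 0.46, adjusted p = 0.0400), beside 34.4% of genes called in that fit (32.1% higher and 2.31% lower). The call did not hold with median-ratio scaling (0.92, limma-voom adjusted p = 0.0868), nor on log2(FPKM + 1) without a filter (0.15, limma adjusted p = 0.0688). It was also lost on leaving out any 1 of control 1 to 5 or MI 1, 2, 3 and 5 (1.07 to 1.46, limma-voom adjusted p = 0.0530 to 0.0892).

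Scn3b, a beta subunit that is not disulfide-linked, had 34 to 69 reads in the controls (0.0768 to 0.161 FPKM, median 0.126) and 49 to 358 reads in MI (0.118 to 0.846 FPKM, median 0.424). MI 1, 2, 3, 5 and 6 lay above all controls and MI 4 among them, and MI 5 was highest. The mean was 0.121 ± 0.0340 FPKM in control and 0.435 ± 0.242 in MI (SD, n = 6 each). The limma-voom log2 fold change was 1.68 (SE 0.65) and did not pass (adjusted p = 0.0529). It passed in 4 of 18 fits that left out 1 library, those without MI 4 (2.0025, limma-voom adjusted p = 0.0254), HXP 2, HXP 3 or HXP 6.

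Scn10a had 110 to 222 reads in the controls (0.170 to 0.356 FPKM, median 0.255) and 88 to 253 in MI (0.145 to 0.406 FPKM, median 0.182). The groups overlapped widely, with MI 6 above and MI 3 and MI 4 below all controls, and by limma-voom the difference of -0.28 on the log2 scale (SE 0.30) did not pass (adjusted p = 0.462).

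**Figure D2:**
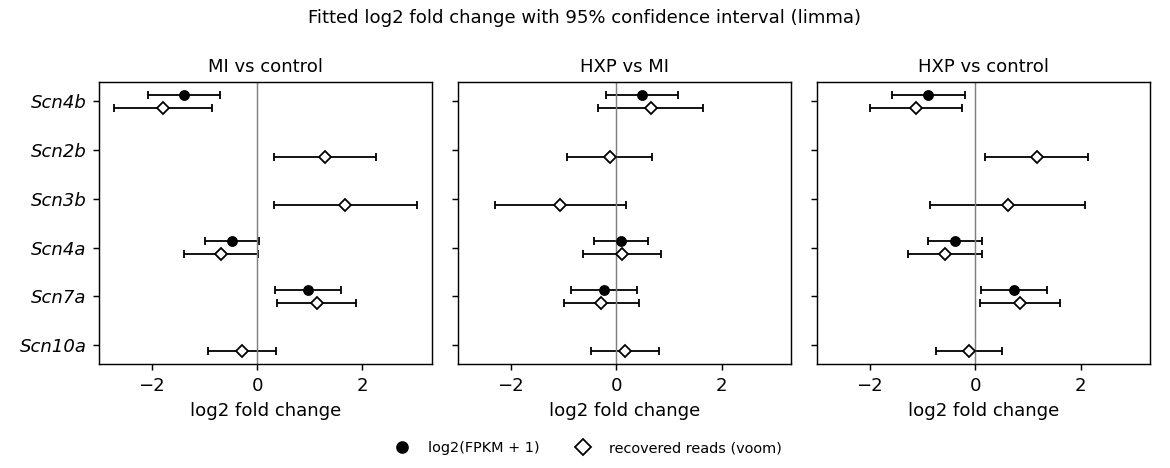
Log2 fold changes with 95% intervals in the 3 comparisons, from limma on log2(FPKM + 1) for Scn4a, Scn4b and Scn7a (filled circles) and from limma-voom on recovered reads for all 6 genes (open diamonds). Intervals are not adjusted for the number of genes: Scn4b, Scn7a and, on reads, Scn2b pass the adjusted threshold in MI against control, and no gene does in the HXP comparisons.

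Hearts labelled HXP were next set against those labelled MI, the contrast that bears on the treatment. None of the 3 genes tested on log2(FPKM + 1) passed, and none reached an unadjusted p under 0.05, as none of 6 did with limma-voom. limma called 0% of the 13710 genes here (1891, or 13.8%, at an unadjusted p under 0.05), and limma-voom 0% of 18633 (2513 unadjusted). The HXP and MI libraries overlapped in all 6 genes. They did so in nearly all genes tested, since 0.423% did not overlap (0.117% higher and 0.306% lower in HXP).

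In HXP 1 to 6, Scn4b was 3.99, 3.07, 1.04, 5.76, 1.81 and 6.16 FPKM. HXP 1, 2, 4 and 6 lay above all MI libraries, HXP 5 among them and HXP 3 below them. The mean was 3.64 ± 2.07 FPKM (SD, n = 6), and the log2 fold change from MI was 0.50 (SE 0.33, 95% interval -0.19 to 1.18, limma adjusted p = 0.467). This interval includes both no difference and a rise of 1.18. HXP 1, 3, 4 and 6 were in the run that held no MI library, with a mean of 4.24 ± 2.33 FPKM (SD, n = 4). In the run of 10 libraries, HXP 2 and 5 had a mean of 2.44 ± 0.890 (SD, n = 2) and the 5 MI libraries 2.08 ± 0.771. For HXP 1, 3, 4 and 6, group and run cannot be told apart in this comparison.

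Scn7a was 5.11, 12.1, 16.6, 5.61, 4.82 and 3.03 FPKM in HXP 1 to 6. HXP 2 and HXP 3 lay above all MI libraries, HXP 6 below all of them and below all controls. HXP 6 also had the lowest median-ratio factor of all libraries (0.754, against 0.905 in control 3 and 1.01 in MI 6). After division by these factors it lay neither below all controls nor below all MI libraries. The coefficient of variation was 67.0%, against 37.0% in MI and 5.05% in control. The log2 fold change from MI was -0.23 (SE 0.30, 95% interval -0.86 to 0.40, limma adjusted p = 0.698).

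Scn4a was 3.29, 1.497, 1.24, 4.82, 1.71 and 4.03 FPKM in HXP 1 to 6. HXP 4 and HXP 6 lay above all MI libraries and the rest among them. The log2 fold change was 0.09 (95% interval -0.42 to 0.61, limma adjusted p = 0.856), and its sign changed in several settings. Of the low genes, Scn3b had 18 to 281 reads, with HXP 4, 5 and 6 (29, 38 and 18 reads) below all MI libraries and HXP 2 and 3 (281 and 274 reads) within the MI range. Its limma-voom log2 fold change was -1.06 (SE 0.59, adjusted p = 0.415). Scn2b (-0.12, adjusted p = 0.887) and Scn10a (0.16, adjusted p = 0.797) were closer to 0 with limma-voom, at 26 to 106 and 76 to 221 reads.

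The third comparison sets HXP against control and shares its libraries with the other two. None of the 3 genes tested passed, while 0.314% of all genes did (0.0948% higher and 0.219% lower), and Scn4b and Scn7a were under an unadjusted p of 0.05 in limma, as were 33.1% of all genes. Scn4b was -0.89 (SE 0.33, 95% interval -1.57 to -0.20, limma adjusted p = 0.102), with HXP 2, 3 and 5 below all controls. Scn7a was 0.73 (SE 0.30, 95% interval 0.10 to 1.37, limma adjusted p = 0.119). In the values as deposited, 5 HXP libraries lay above all controls and HXP 6 below, which does not hold after median-ratio scaling. Scn4a was -0.39 (95% interval -0.90 to 0.13, limma adjusted p = 0.255). With limma-voom Scn2b was 1.17 (SE 0.46, adjusted p = 0.141), Scn3b 0.62 (adjusted p = 0.553) and Scn10a -0.12 (adjusted p = 0.802), and 0 of 6 passed, beside 0.059% of genes (0.0107% higher and 0.0483% lower). The HXP and control libraries overlapped in all 6 genes, whereas 1.7% of all genes tested did not overlap (1.13% higher and 0.569% lower in HXP).

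HXP 6 decided these calls. It held the highest Scn4b and the lowest Scn7a of the HXP libraries, and the fewest genes at 1 FPKM or more (9888). Its fibroblast marker sum was the lowest of all 18 libraries (251 FPKM, against 704 to 3065 in the other HXP libraries). So were its macrophage (35.6 FPKM), endothelial (85.1), Schwann cell (2.62), neuron (1.68) and conduction system (5.12) sums. Its mitochondrial share of reads was the highest (45.5%). Without HXP 6, Scn4b (-1.04, limma adjusted p = 0.0303) and Scn7a (0.92, limma adjusted p = 0.0281) both passed, and 4236 genes were called (30.9% of those tested). With limma-voom and without HXP 6, Scn2b passed as well (1.40, adjusted p = 0.0339). The part of the marker sums and the mitochondrial share of HXP 6 in these values was not tested.

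Ratios within a library do not depend on its scaling. Scn4b over Scn7a was 0.873 to 3.54 in control (mean 2.08 ± 1.09), 0.171 to 0.371 in MI (0.253 ± 0.0803) and 0.0629 to 2.04 in HXP (0.756 ± 0.720; SD, n = 6 each). No MI library overlapped the controls in this ratio, whose lowest control values were in the last run (0.873, 1.26 and 1.31). This had to be so, since MI lay below control in Scn4b and above it in Scn7a without overlap, and is no separate evidence. HXP 1, 4, 5 and 6 lay at 0.780, 1.03, 0.375 and 2.04, above all MI libraries, HXP 2 at 0.254, among them, and HXP 3 at 0.0629, below them. As a share of the summed FPKM of the 6 genes, Scn4b made up 46.6 ± 12.2% in control, 14.7 ± 3.36% in MI and 25.5 ± 14.1% in HXP, and Scn7a 25.6 ± 7.23%, 60.3 ± 11.1% and 50.1 ± 22.9%. Scn4a made up 24.7 ± 5.57%, 18.6 ± 10.7% and 19.6 ± 10.2%. HXP 4 and HXP 6 were the HXP libraries in which Scn4b remained the highest of the 6 genes.

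**Figure D3:**
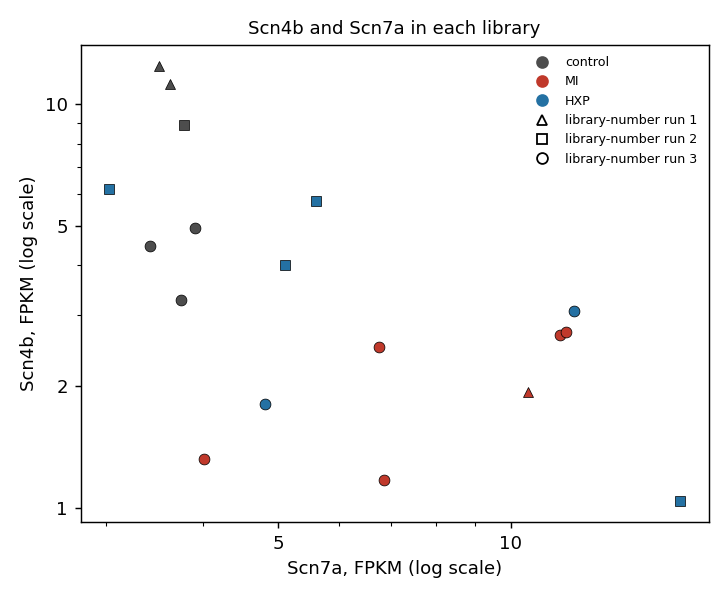
Scn4b against Scn7a in each of the 18 libraries, both in FPKM on log axes, coloured by group with symbols for the run of library numbers. Controls lie at 3.27 to 12.4 FPKM of Scn4b within 3.41 to 3.91 FPKM of Scn7a, MI libraries at lower Scn4b and higher Scn7a, and HXP libraries from 3.03 FPKM of Scn7a (HXP 6) to 16.6 FPKM (HXP 3).

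Over the 18 libraries the genes fell into 2 sets by the sign of their correlation on log2(FPKM + 1), though not all pairs were close. This is given as a description because the libraries share groups and scaling. Scn2b and Scn7a had r = 0.855 (0.769 after removing the group means), Scn3b and Scn7a 0.840 (0.775) and Scn2b and Scn3b 0.681 (0.547). Scn4a ran with Scn4b at 0.697 (0.610) and with Scn10a at 0.702 (0.712), but Scn4b with Scn10a only at 0.357 (0.318). Scn3b and Scn4a ran against each other at -0.744 (-0.679), and Scn2b and Scn10a only weakly at -0.200 (-0.121). The neighbours Scn2b and Scn4b did not run together (-0.478, or -0.0944 after removing the group means).

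Among 10751 genes averaging 1 FPKM or more, the gene most like Scn4b was Kcnv2, which encodes a silent potassium channel subunit (r = 0.933 over 18 libraries, 0.865 after removing the group means). Kcnv2 was 1.80, 3.25, 1.60, 1.63, 2.77 and 1.44 FPKM in control 1 to 6. Its highest values were in control 2 and control 5, the controls of the first run of library numbers, as for Scn4b. It was 0.343 to 0.780 FPKM in MI and fell by 1.01 (SE 0.20, limma adjusted p = 0.0136), and in HXP it was 1.48, 0.631, 0.357, 2.0005, 0.591 and 2.04 FPKM. Rmnd1 (r = 0.863) and Dym (0.861) followed by level, and Dym (0.786) after removing the group means. Removing the group means does not remove differences between the runs.

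The genes most like Scn7a were Thsd7a (r = 0.984), Man2a1 (0.982), a mannosidase of the Golgi, and Kcnt2 (0.981), a sodium-activated potassium channel. After removing the group means they were Thsd7a (0.987), Bmf (0.982) and Nox4 (0.979), an oxidase that produces hydrogen peroxide. Thsd7a lay at 0.542 to 0.646 FPKM among controls, 0.766 to 3.09 among MI libraries and 0.460 to 3.44 among HXP libraries, with its lowest MI value in MI 6 and its HXP extremes in HXP 3 and HXP 6, as for Scn7a. The fibroblast marker Pdgfra, singled out after its values were seen, ranked 11 by level (r = 0.978). It was at 2.85 to 3.89 FPKM among controls, 4.59 to 10.7 among MI libraries and 2.47 to 18.7 among HXP libraries. Il10ra (rank 12, r = 0.978) and C3ar1 (rank 15, r = 0.977), not fibroblast markers here, were as close. After removing the group means Pdgfra was not among the first 15. The likeness therefore does not single out fibroblasts. The genes most like Scn4a were Vwa8 (r = 0.932), Aldh5a1 (0.921) and Acsl6 (0.920), with Aldh5a1 first after removing the group means (0.918). All these genes were picked for likeness over the same libraries, so that their changes between groups are no separate evidence.

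**Figure D4:**
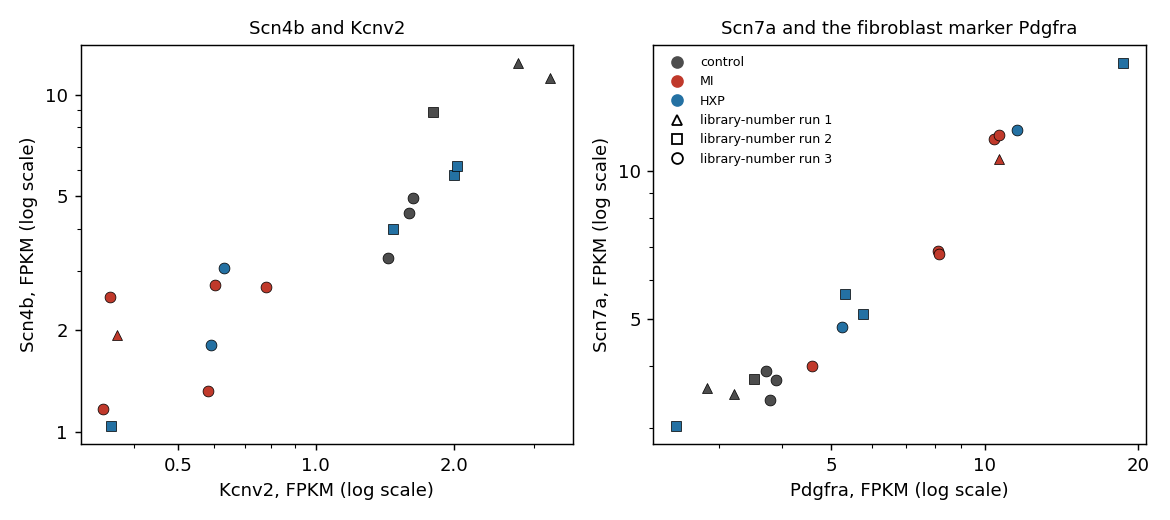
Scn4b against Kcnv2 (left) and Scn7a against Pdgfra (right) in each of the 18 libraries, in FPKM on log axes, with symbols for the run of library numbers. Control 2 and control 5, both of the first run, are highest in Scn4b and in Kcnv2. HXP 6 and HXP 3 are the lowest and highest of all libraries for both Scn7a and Pdgfra.

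Proteins that bind, anchor or regulate sodium channels were given by a list of 20 sodium channel partners, of which 19 were tested. In MI 4 rose and 0 fell, beside 40.1% of all genes higher and 3.21% lower. The median log2 fold change was 0.10 against 0.27 for all genes. Fgf14, an intracellular factor that binds the tail of the alpha subunit, was at 0.466 ± 0.128 FPKM in control, 2.07 ± 1.06 in MI and 1.35 ± 0.997 in HXP (SD, n = 6 each), and rose in MI by 0.99 on the log2 scale (SE 0.25, limma adjusted p = 0.0146). Fgf11, of the same family, rose by 0.55 (limma adjusted p = 0.0171). Ywhah, a 14-3-3 adaptor, rose by 0.62 (limma adjusted p = 0.0147) and Calm2, which encodes calmodulin, by 0.63 (limma adjusted p = 0.0186). With median-ratio scaling 3 rose, Calm2 not among them, the median was -0.21, and in the run of 10 libraries 0 passed. None passed in HXP against MI (2 at an unadjusted p under 0.05, 0 with limma-voom), where Calm3 was at -0.75 (limma adjusted p = 0.264) and Ywhah at -0.32 (limma adjusted p = 0.377). None passed in HXP against control either (4 unadjusted, 0 with limma-voom), where Fgf14 was at 0.59 (limma adjusted p = 0.125) and Rangrf at -0.43 (limma adjusted p = 0.143).

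Of 10 cardiac channel transcription factors, 9 were tested. In MI only Mef2c passed, rising by 0.68 (limma adjusted p = 0.0367), beside 43.3% of all genes called. Its level was 0.878 ± 0.121 FPKM in control and 2.41 ± 1.95 in MI, and the call was lost with median-ratio scaling (0.48, limma adjusted p = 0.139). Gata4 (0.20, limma adjusted p = 0.0602) and Foxo1 (0.30, 0.0763) came next. None of the 9 passed in the HXP comparisons, with 5 at an unadjusted p under 0.05 against MI and 2 against control, and 0 with limma-voom. Nkx2-5, a homeobox factor of the heart, had the smallest p of this list in HXP against MI (-1.44, limma adjusted p = 0.212) and in HXP against control (-1.34, limma adjusted p = 0.0870). Its mean was 9.02 ± 4.31 FPKM in control, 10.03 ± 6.12 in MI and 3.19 ± 1.97 in HXP (SD, n = 6 each).

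The other voltage-gated channel lists did not follow one direction in MI. Of 13 voltage-gated calcium channel subunits, 9 were tested, 4 rose and 0 fell, near the share of all genes that rose (40.1%), and the median was 0.10 against 0.27. The 4 were Cacnb3 (1.33, limma adjusted p = 0.0139), Cacng7 (1.03, 0.0164), Cacna1g (0.49, 0.0184) and Cacnb1 (0.59, 0.0225). Cacnb3, a cytoplasmic beta subunit, went from 0.665 ± 0.0818 to 3.36 ± 1.38 FPKM. With median-ratio scaling 3 of these rose, Cacna1g not among them, and 1 of the 9 fell. Of 21 potassium and pacemaker channels, 18 were tested, 1 rose and 4 fell, beside 40.1% and 3.21% of all genes. The median was -0.16. Kcne4, a small accessory subunit, rose by 1.64 (limma adjusted p = 0.0139). Kcnv2, Kcnip2 (-0.69, limma adjusted p = 0.0231), Kcnj3 (-0.56, 0.0271) and Kcnj11 (-0.40, 0.0276) fell. Kcnip2, the partner of the transient outward channel, was at 37.6 ± 2.19 FPKM in control and 23.8 ± 7.11 in MI. With median-ratio scaling 9 of the 18 fell and 1 rose. Neither list had a gene that passed in HXP against MI, by limma or limma-voom, where 3 calcium and 4 potassium channel genes were at an unadjusted limma p under 0.05. Smallest in p were Cacna1g (-0.53, limma adjusted p = 0.248), Cacna1h (-0.31, 0.351), Kcnj8 (-0.33, 0.268) and Kcnh2 (-0.58, 0.319). In HXP against control 0 of either list passed by limma or limma-voom, with 1 of 9 calcium and 10 of 18 potassium channel genes at an unadjusted limma p under 0.05, beside the 33.1% of all genes. Kcnj11 (-0.55, limma adjusted p = 0.0676), Kcnk3 (-0.52, 0.0676) and Kcnj8 (-0.37, 0.0881) led the potassium channels, and Cacnb3 (0.70, 0.123) the calcium channels.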

How the data were processed

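Heart tissue RNA of 6 control, 6 MI and 6 HXP libraries was measured by RNA sequencing. The authors deposited 1 value per gene and library. The unit, FPKM, was inferred from the deposited values, since the file headers do not name it: 98.0% to 98.5% of 7409 to 9137 low values per library, times the merged exon length of the gene, were whole reads within 0.1. Per the submitters' processing notes the build was GRCm38 and limma was used. As to the aligner, the counter and the annotation, each was not given in the sources used here. IDs were matched to GENCODE M21 (34097 of 34150).

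The scale was log2(FPKM + 1), over the 13710 genes whose mean reached 0.5 FPKM. A single model of 3 groups was fitted with limma 3.58.1 (trend on, robust prior off) in R 4.3.3. Two-sided p-values were adjusted over all genes (Benjamini-Hochberg), with calls below 0.05. The pseudocount of 1 compresses changes of low genes, so that Scn2b, Scn3b and Scn10a were read with limma-voom on the reads recovered from the steps, a choice made after seeing the data. Counting error comes from these reads. The fit was tested on simulated data. The genes named besides the 6 were the 3 with the smallest p per list and comparison, any further called gene of a list, and the 3 most correlated genes. The genes and lists were chosen with earlier results of these data known. Replicate numbers were not shown to pair libraries. Other settings were pseudocount, filter, scaling, groups fitted, replicate block, run of library numbers, robust prior, and libraries left out. Other genes of the sodium channel family, and some genes that the naming rule picks, are not reported here. Figures were drawn with matplotlib 3.10.9.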

Additional observations from a re-analysis of the deposited data

How the results depend on the processing

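In MI against control Scn4b passed in 33 of 35 settings (log2 fold change -2.16 to -0.79, limma adjusted p = 0.00146 to 0.0688) and Scn7a in 33 of 36 (0.62 to 1.14, 0.00160 to 0.105), with no change of direction. The 2 members called in MI against control became 1 at a mean of at least 5 FPKM, where Scn4a and Scn4b were not tested, 0 in the run of 10 libraries alone and 0 without MI 4 and MI 5 together. They were 1 to 2 when 1 library was left out of limma on log2(FPKM + 1), the 1 being without MI 5. Without MI 4 and MI 5, Scn4b was -1.44 (limma adjusted p = 0.0555) and Scn7a 0.94 (0.0670), with 0 of 13710 genes called. In HXP against control the 0 members called became 2 without HXP 6 and 2 without HXP 5 and HXP 6 together (0 to 2 over single libraries). The cause was not tested.

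The direction of Scn4a in HXP against MI (0.09) turned with the run as a covariate (-0.18), in the run of 10 (-0.47), without MI 5 (-0.037), without HXP 4 (-0.053), without HXP 6 (-0.010) and without MI 4 and MI 5 (-0.070), and ranged from -0.053 to 0.22 over single libraries left out. Scn7a turned in the run of 10 (0.0077) and without HXP 5 and HXP 6 (0.11). Scn2b (-0.02 without a filter) turned on recovered reads with median-ratio scaling (0.073), without MI 1 (0.043), without MI 2 (0.054) and without HXP 6 (0.11). Scn10a in HXP against control (-0.02) turned on reads without HXP 5 (0.067). None of these values passed.

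Over all genes, the calls in MI against control were 5494 higher and 440 lower, and with median-ratio scaling 2395 and 2068, as the median log2 fold change moved from 0.27 to 0.0029. With quantile normalization they were 1869 and 2316, and with scaling to non-mitochondrial FPKM 2971 and 1103. The calls in all, 5934, fell to 2292 at a mean of at least 5 FPKM, 79 in the run of 10, 3892 without control 2 and 2656 without MI 5. In HXP against control the 43 calls became 0 with no filter, with the run as a covariate, and without control 3, control 5, control 6 or HXP 5. They reached 1297 with quantile normalization and 5967 without HXP 5 and HXP 6. In HXP against MI the 0 calls reached 71 without HXP 1.

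The replicate block changed no member's call: Scn4b was -1.38 (limma adjusted p = 0.0108) and Scn7a 0.97 (0.0192) in MI against control, with 5610 genes called, against 1 in each HXP comparison. The numbers did not pair the libraries, with 5 of 18 pairs correlating over 0.1 and 1 library correlating best with its own number in both other groups. Averaging MI 1 and MI 2 left Scn4b at -1.45 (0.0314) and Scn7a at 0.87 (0.0469). Counting error alone gives a coefficient of variation of 1.54% to 3.76% for the 3 tested genes, and for Scn2b and Scn3b up to 20.6% and 14.9%. Fits with edgeR were not run, as the values are FPKM.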

Other observations

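Markers of the conduction system, where sodium channels carry fast spread, summed to 7.02 to 16.9 FPKM across the controls, 9.69 to 14.5 FPKM across MI libraries and 5.12 to 9.11 FPKM across HXP libraries. Of 5 such genes tested, Gja5 alone rose in MI by limma. Of 6 atrial cardiomyocyte markers tested, Nppa rose in MI, Kcnj3 fell and the other 4 did not pass. Endothelial markers (113 to 181 FPKM in control, 175 to 206 in MI) rose in 1 of 8 and adipocyte markers (61.2 to 79.2 and 53.9 to 459) in 1 of 5 tested, beside 40.1% of all genes. None of the 18 sets of 6 values, of 6 genes in 3 groups, held a value set apart from the rest by Dixon's criterion.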
